A study of Mus musculus with 6 samples.

Results

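Hyaluronan is a long sugar polymer of the matrix around cells, and 10 mouse genes that make it, bind it or cut it were followed here in macrophages. They are the receptor genes Cd44, Stab1 and Lyve1, the hyaluronan-binding matrix gene Tnfaip6, the synthase genes Has1 and Has3, and the degradation genes Hyal1, Hyal2, Hyal3 and Cemip2. The members were taken as a list by symbol, and all 10 were found among the 55263 genes to which the counted transcripts belong. The cells were bone marrow-derived macrophages, which are grown in culture from mouse marrow precursors. There were 3 groups of 2 libraries. The control cells are labelled wild type, the second group received LPS (bacterial lipopolysaccharide, a ligand of Toll-like receptor 4), and the third received LPS with HACA. What HACA stands for is not written in the labels, which also give no dose or time and do not say what the control or LPS cells received in its place, while the series title speaks of a hyaluronic acid nanomedicine for psoriasis in mice. Nothing in the labels says that the 2 libraries of a group came from separate cultures or animals, so p-values measure the spread between these libraries only.

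Hyaluronan is made at the cell membrane by synthases that push the growing chain out of the cell, and it is then bound by surface receptors and by secreted proteins that cross-link it into a coat. Enzymes such as hyaluronidases cut it into fragments, which are taken up and broken down in lysosomes. In macrophages CD44 is the best-known hyaluronan receptor, and stabilin-1, the product of Stab1, is a scavenger receptor of alternatively activated macrophages and of some endothelial cells.

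The authors deposited 1 raw count per annotated transcript, and the gene values here are sums of these counts. Of the 50 transcripts annotated for the 10 genes, 24 have no exonic base of their own, that is, every exonic base lies also in another annotated transcript. Those 24 transcripts together held 2 of the 110457 counts of the 10 genes. The counts therefore came almost entirely from bases that belong to a single transcript, called private bases below, and a gene's value describes those bases rather than the whole gene. They made up 100% of the exonic bases of Tnfaip6, 75.3% of Has1, 73.4% of Lyve1, 43.3% of Stab1, 30.3% of Has3, 27.1% of Hyal3, 22.6% of Cd44, 21.8% of Cemip2, 21.4% of Hyal2 and 1.24% of Hyal1.

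Some private bases lie in introns that an annotated transcript retains. Transcripts annotated as intron-retaining held 95.6% of the counts of Cemip2, 56.9% of Has1, 50.4% of Cd44 and 2.46% of Stab1, and none of those of the other 6 genes. What these introns are is shown by the sequence at the border where the private stretch leaves the neighbouring exon (GRCm38, 5′ to 3′ on the gene's strand, exon in lower case, retained intron in capitals):
Cd44-209, intron 5 of Cd44-201, chr2:102852995-102853034, minus strand: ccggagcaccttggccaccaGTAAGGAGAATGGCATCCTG
Cemip2-203, intron 4 of Cemip2-201, chr19:21798409-21798448, plus strand: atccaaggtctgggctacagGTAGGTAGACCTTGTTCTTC
Has1-202, intron 2 of Has1-201, chr17:17849921-17849960, minus strand: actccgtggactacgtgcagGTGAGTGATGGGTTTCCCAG
Each intron begins with the GT of a splice donor. The private bases of Has1-202 also take in intron 3 whole (464 bases), 375 bases of intron 4 and 17 bases before the start of Has1-201, so its count is not that of intron 2 alone. Hyal2 is a further case, since Hyal2-206 and Hyal2-204, annotated as coding, have their private bases in introns of Hyal2-201.

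The other source of the Cd44 counts was Cd44-201, the longest coding transcript with 19 exons. Its 369 private bases are exons 6, 7 and 8 whole, which no other annotated Cd44 transcript holds. Exons in this stretch of Cd44 are alternatively spliced and are absent from the standard form of the receptor. Apart from 2 counts of Cd44-207, at its start, the Cd44 value therefore holds none of the exons that all forms share, and the 3 exons are printed because they carry the coding counts of Cd44 (GRCm38, minus strand):
Exon 6, chr2:102848657-102848782: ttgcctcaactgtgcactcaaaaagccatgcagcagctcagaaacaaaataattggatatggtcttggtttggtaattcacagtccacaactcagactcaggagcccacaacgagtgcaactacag
Exon 7, chr2:102846403-102846519: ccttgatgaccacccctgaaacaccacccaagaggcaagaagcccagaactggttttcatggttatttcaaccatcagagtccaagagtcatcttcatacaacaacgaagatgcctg
Exon 8, chr2:102845285-102845410: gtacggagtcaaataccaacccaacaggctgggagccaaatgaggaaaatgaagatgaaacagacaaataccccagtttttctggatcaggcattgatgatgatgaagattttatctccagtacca

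**Figure D1:**
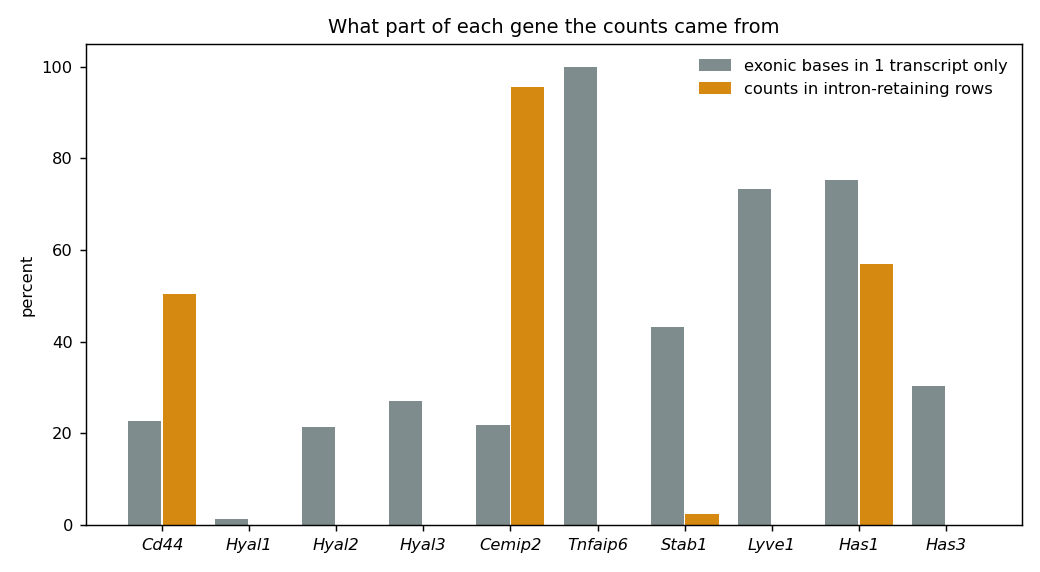
Bars give, for each gene, the percent of its exonic bases that lie in 1 annotated transcript only (grey) and the percent of its counts that fall in transcripts annotated as intron-retaining (orange). Hyal2-206 and Hyal2-204, annotated as coding, are left out of the orange bars. Tnfaip6 is countable over its whole length, Hyal1 over 1.24% of it, and 95.6% of the Cemip2 counts are intronic.

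Libraries held 12529874 to 15379496 counts. Values below are CPM, counts scaled by library depth, after TMM scaling, which sets the bulk of genes level between libraries. All 8 macrophage marker genes were detected, with a summed level of 31123 to 53231 CPM, most of it Lyz2 (30358 to 47787 CPM). Cd14 stood at 331 to 5262 CPM, Mertk at 39.1 to 160, Fcgr1 at 63.9 to 136 and Csf1r at 19.6 to 54.4. The remaining markers were low, with Adgre1 at 0.394 to 0.674 CPM, Itgam at 0.193 to 1.82 and Cd68 at 3.25 to 7.03. Private bases were not worked out for the markers, so a low value need not mean low expression. Of these markers Cd14 rose with LPS and fell with HACA against LPS, and Mertk and Itgam fell with LPS. In the LPS libraries Itgam stood at 0.197 and 0.193 CPM, below the level of 3 counts (0.296 and 0.289 CPM). The scaling matters for the LPS libraries: with plain library totals the median log2 change of all tested genes moves to −0.69 for LPS against control and to 0.70 for LPS+HACA against LPS, from −0.053 and 0.059. The higher genes are then 21.7% and not 52.6% of those called in the first comparison, and 87% and not 42.8% in the second. Changes below are relative to the bulk of genes. The stromal markers summed to 32.5 to 50.3 CPM in replicate 1 of the 3 groups and to 1.42 to 2.31 CPM in replicate 2. Most of this was Col1a1, Col1a2 and Col3a1. Postn, Lum, Dcn and Pdgfra had at most 0.690 CPM in a library, and Lum was highest in LPS replicate 2 (0.385 CPM). The 4 cycling-cell markers were also higher in each replicate 1. The libraries numbered 1 thus stood apart from those numbered 2 in the 3 groups, and no stromal or cycling marker passed the test in any comparison. The endothelial list, of interest because Stab1 and Lyve1 are also endothelial genes, summed to 5.29 to 8.41 CPM in control, 33.0 to 62.8 in LPS and 13.9 to 21.7 in LPS+HACA. Of its 7 genes, 6 were detected. Kdr alone changed, from 3.89 and 2.84 CPM in control to 56.3 and 29.1 with LPS and 16.7 and 11.3 in LPS+HACA, and Tek was at 0 in all 6 libraries. The part of cells other than macrophages in the results below was not tested, and in bulk RNA fewer cells of a type cannot be told apart from less RNA per cell.

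With LPS, 4 of the 9 members that could be tested were higher than in control and 1 was lower. The genes that rose were Cemip2, Tnfaip6, Has1 and Cd44, and Stab1 fell. Among all 17113 tested genes 30.1% changed in this comparison (15.9% higher, 14.3% lower; edgeR quasi-likelihood test, Benjamini-Hochberg adjusted p under 0.05). The median log2 change of the 9 members was 0.85, beside −0.053 for all genes. The 2 groups of libraries did not overlap for 6 of the 9 members, where 66.7% of all tested genes showed the same.

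When HACA was given with LPS, 3 of the 9 were lower than with LPS alone and 0 were higher. Those that fell were Tnfaip6, Cemip2 and Cd44. Of all tested genes 13.4% changed (5.74% higher, 7.67% lower). At an unadjusted p under 0.05, 4 members were lower and 0 higher, and DESeq2 and limma-voom also called 0 higher. The members' median was −0.18, beside 0.059 for all genes, and the libraries did not overlap for 5 of 9, where the share of all genes was 57.7%. Without either one of the LPS+HACA libraries edgeR called 0 of the 3, while the percent of all genes called fell to 2.04 and 3.65.

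Between LPS+HACA and control, Stab1 was lower and 0 members were higher. Of all tested genes 1.15% changed (0.894% higher, 0.257% lower). At an unadjusted p under 0.05, 2 members, Has1 and Cemip2, were higher. DESeq2 called 1 of them higher and limma-voom called 0. The median of the members was −0.30, beside 0.0042 for all genes, and libraries did not overlap for 5 of 9, where the share of all genes was 46.5%. The 3 comparisons share groups, so they are not independent of each other.

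Because libraries numbered 1 and 2 stood apart in collagen and cycling markers, the ratio was also taken within each number, as a value with no test. This was done for the called members other than Tnfaip6, which has a control library at 0. LPS over control was 2.60 and 1.96 for Cd44, 9.91 and 8.92 for Cemip2, 4.46 and 3.72 for Has1, and 0.506 and 0.455 for Stab1. LPS+HACA over LPS was 0.337 and 0.371 for Cd44, 0.259 and 0.272 for Cemip2, 0.634 and 0.547 for Has1, and 0.968 and 0.978 for Stab1. Each of these ratios lay on the same side of 1 in replicate 1 and in replicate 2.

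**Figure D2:**
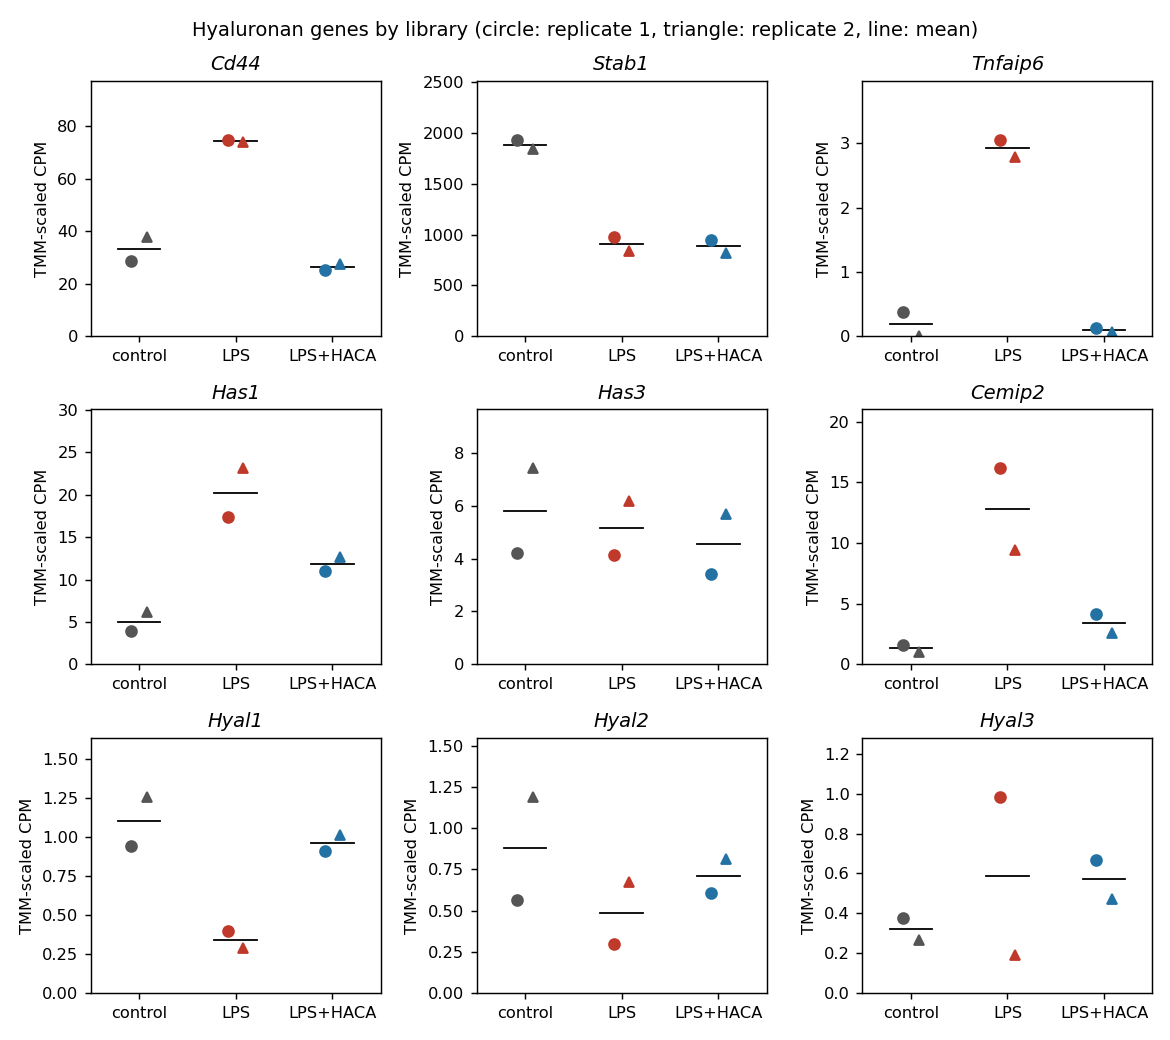
TMM-scaled CPM of the 9 tested members in each library (circle, replicate 1; triangle, replicate 2; line, group mean), each panel on its own linear axis from 0. Cd44, Tnfaip6 and Cemip2 are high in both LPS libraries and lower in both LPS+HACA libraries, and Stab1 is lower than control in all 4 LPS-treated libraries.

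Among the receptors, Cd44 (gene ENSMUSG00000005087, chr2:102811141-102901665, minus strand) encodes the main surface receptor for hyaluronan. It stood at 28.8 and 37.8 CPM in control, 74.9 and 74.1 with LPS, and 25.2 and 27.5 in LPS+HACA. Both LPS libraries were above all others, and both LPS+HACA libraries were below both controls. The log2 change was 1.16 ± 0.23 (SE, n = 2 libraries a group) with LPS (edgeR adjusted p = 0.00797) and −1.50 ± 0.23 for LPS+HACA against LPS (edgeR adjusted p = 0.00913). Against control the LPS+HACA value was −0.34 ± 0.23 (edgeR adjusted p = 0.686), which did not pass.

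The exons and the intron of Cd44 were counted in separate transcripts and can be compared. The standard form of the receptor lacks both stretches, so the comparison does not set the exons of that form against an intron. Exons 6 to 8 held 232 and 297 counts in control, 363 and 392 with LPS, and 206 and 184 in LPS+HACA. The retained part of intron 5, 1122 bases in Cd44-209, held 227 and 275, 397 and 375, and 209 and 222 counts. With LPS the exons rose by 1.09 ± 0.28 log2 (edgeR adjusted p = 0.0140 over all 31475 tested transcripts, of which 26.4% changed, 13.9% higher and 12.5% lower) and the intron by 1.20 ± 0.28 (edgeR adjusted p = 0.00853). For LPS+HACA against LPS they fell by 1.57 ± 0.28 and 1.46 ± 0.28 (edgeR adjusted p = 0.00672 and 0.00928, where 11.1% of transcripts changed, 4.75% higher and 6.31% lower). A test of each transcript against the rest of its gene found no difference between exons and intron past the threshold (change of the exons beyond the intron with LPS −0.11 ± 0.21 log2, limma adjusted p = 0.842).

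The rise of Cd44 with LPS was lost with library totals (0.52 log2, edgeR adjusted p = 0.134) and without control replicate 1 (0.96, edgeR adjusted p = 0.0974). The fall with HACA was lost without LPS+HACA replicate 1 or 2 (edgeR adjusted p = 0.0831 and 0.0527), with values of −1.41 and −1.57. Tested apart, the exons and the intron did not pass with LPS under library totals (edgeR adjusted p = 0.239 and 0.153) or without control replicate 1 (0.178 and 0.125) or 2 (0.0579 and 0.0505), nor with HACA under library totals (0.0507 and 0.0789), and the intron did not pass with HACA without LPS+HACA replicate 1 (0.0860).

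Stab1 (ENSMUSG00000042286, chr14:31139013-31168641, minus strand) was the member with the most counts, 105059 over the 6 libraries. Its level was 1934 and 1842 CPM in control, 979 and 839 with LPS, and 947 and 820 in LPS+HACA. The 4 LPS-treated libraries lay below both controls, and those with and without HACA overlapped. Stab1 fell by 1.05 ± 0.19 log2 with LPS (edgeR adjusted p = 0.00578) and by 1.10 ± 0.20 in LPS+HACA against control (edgeR adjusted p = 0.0466). The difference between LPS+HACA and LPS was −0.041 ± 0.19 (edgeR adjusted p = 0.913). With library totals it was 0.60 (edgeR adjusted p = 0.0848), so its sign depends on the scaling. The fall with LPS stood at an edgeR adjusted p of 0.0533 without control replicate 1. The difference between LPS+HACA and control did not pass without control replicate 1 or 2 or LPS+HACA replicate 1 or 2 (edgeR adjusted p = 0.401, 0.353, 0.195 and 0.390), with library totals (0.0864) or with the authors' FPKM and limma (0.224).

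Stab1 has 69 exons in its coding transcript, Stab1-201, and 5 intron-retaining transcripts with counts. Their private stretches, for Stab1-208 the longest of 6, begin or end at these borders, printed because the results on introns below turn on them (GRCm38, minus strand, exon in lower case, intron in capitals, introns numbered as in Stab1-201):
Stab1-205, intron 18, chr14:31158822-31158861: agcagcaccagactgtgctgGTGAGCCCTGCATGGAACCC
Stab1-206, intron 20, chr14:31157351-31157390: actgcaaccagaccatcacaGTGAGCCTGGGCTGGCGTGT
Stab1-209, intron 48, chr14:31145345-31145384: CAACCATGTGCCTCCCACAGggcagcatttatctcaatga
Stab1-213, intron 55, chr14:31142649-31142688: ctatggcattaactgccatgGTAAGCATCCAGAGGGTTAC
Stab1-208, intron 57, chr14:31141769-31141808: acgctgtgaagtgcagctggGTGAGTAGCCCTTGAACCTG
The stretch of Stab1-209 runs up to the AG of the acceptor, and the other 4 start at the GT of the donor. The 506 private bases of Stab1-208 lie in 6 introns (50, 51, 57, 58, 59 and 66), of which intron 57 has 148 bases, and its count cannot be divided among them. The other 4 transcripts have their private bases in 1 intron each.

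With LPS, 4 of these 5 intron-retaining transcripts were left at a smaller part of their control level than the exons. Stab1-201 held 29876 and 26948 counts in control, 9833 and 8629 with LPS, and 15295 and 11894 in LPS+HACA. Its scaled level in the LPS libraries was 53.3% and 44.3% of the control mean, and 51.1% and 42.1% with HACA. Stab1-206, whose private bases are the whole of intron 20 (304 bases), held 341 and 270 counts in control, 1 and 13 with LPS, and 63 and 48 in LPS+HACA. Its scaled level was thus 0.505% and 6.21% of the control mean with LPS, and 19.6% and 15.8% with HACA. Both LPS libraries lay below both LPS+HACA libraries, which lay below both controls.

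The same order of groups held for 3 further intron-retaining transcripts. Stab1-208 had 155 and 175 counts in control, 4 and 7 with LPS, and 38 and 42 with HACA. Stab1-209 had 185 and 196, 3 and 11, and 48 and 49. Stab1-213 had 80 and 80, 5 and 8, and 26 and 27. In each of these the libraries of the 3 groups did not overlap on the scaled level. Stab1-205 was the exception, with 194 and 184 counts in control, 91 and 41 with LPS, and 128 and 71 in LPS+HACA, where the libraries with and without HACA overlapped. Among all tested genes, LPS and control did not overlap for 66.7%, LPS+HACA and LPS for 57.7%, and LPS+HACA and control for 46.5%. The share over all transcripts was not taken, so how unusual this order is was not tested.

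**Figure D3:**
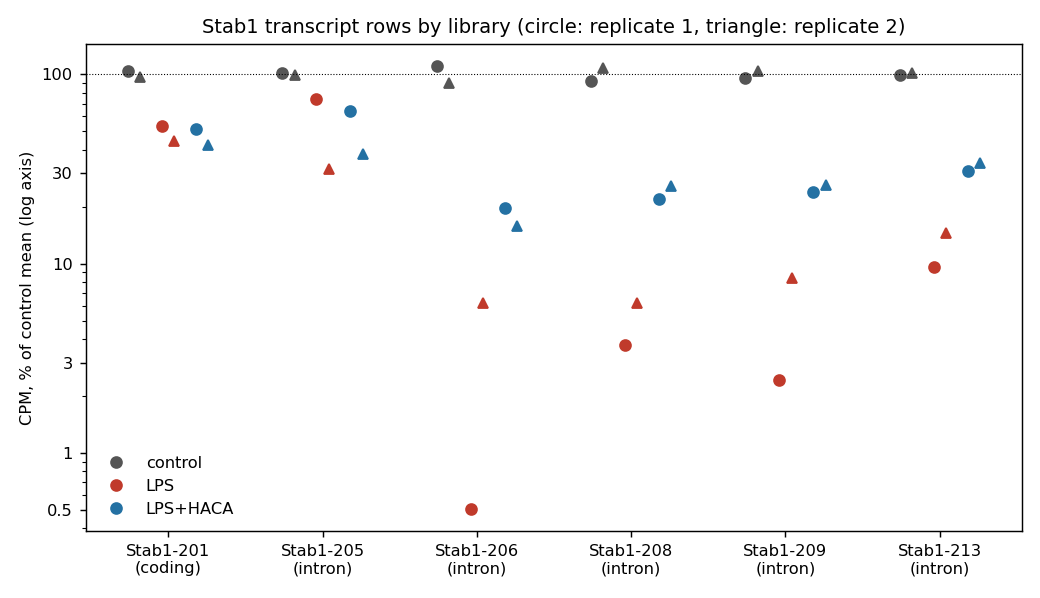
Scaled level of each counted Stab1 transcript in each library as a percent of its control mean (log axis; circle, replicate 1; triangle, replicate 2). The coding transcript and Stab1-205 have 31.6% to 74.1% of the control mean in the 4 LPS-treated libraries, while the other 4 intron-retaining transcripts have 0.505% to 14.6% in LPS and 15.8% to 34.0% in LPS+HACA.

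With LPS the coding transcript fell by 1.04 ± 0.20 log2 (edgeR adjusted p = 0.00359). Stab1-206 fell by 4.86 ± 0.63 (edgeR adjusted p = 0.000387), Stab1-208 by 4.31 ± 0.44 (6.95e-05), Stab1-209 by 4.17 ± 0.48 (0.000149) and Stab1-213 by 3.02 ± 0.46 (0.000801), while Stab1-205 stood at −0.92 ± 0.42 (0.129; −1.63 and 0.00582 without LPS replicate 1, −1.52 and 0.0281 with library totals). The size of these values moved when 1 LPS library was left out: without LPS replicate 1 or 2, Stab1-206 stood at −3.98 and −7.50, and Stab1-209 at −3.54 and −5.32. For LPS+HACA against LPS the coding transcript stood at −0.066 ± 0.20 (edgeR adjusted p = 0.870). Stab1-206 rose by 2.36 ± 0.63 (0.0383), Stab1-208 by 2.23 ± 0.45 (0.0117) and Stab1-209 by 2.17 ± 0.49 (0.0189), and Stab1-213 stood at 1.40 ± 0.48 (0.0843, and 2.07 and 0.0146 with library totals). Without LPS replicate 1 or 2, Stab1-206 stood at 1.49 and 5.01, and Stab1-209 at 1.54 and 3.32. Among all transcripts 4.75% were higher in that comparison. Of these calls, that of Stab1-206 was lost without either control library or either LPS+HACA library (edgeR adjusted p = 0.0644 to 0.133), that of Stab1-209 without LPS+HACA replicate 2 (0.0516), and that of Stab1-208 with limma-voom (0.0584).

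A separate fit asked whether each transcript changed by more than the rest of its gene, with limma on the log2 ratio of the transcript to that rest. With LPS 3 intron-retaining transcripts fell beyond the rest of Stab1: Stab1-206 by 3.25 ± 0.43 log2 (limma adjusted p = 0.000249), Stab1-209 by 2.47 (0.00091) and Stab1-208 by 2.39 (0.000619). These calls held without each library in turn, though without LPS replicate 1 or 2 the values were −2.37 and −4.25 for Stab1-206 and −1.89 and −3.15 for Stab1-209. Stab1-213 stood at −1.28 (0.0622), and at −1.62 (0.0181) without LPS replicate 2, and Stab1-205 at 0.095 (0.905). Of 21931 transcripts in this fit 4.34% differed from the rest of their gene. Against LPS alone, the same 3 transcripts, Stab1-206, Stab1-209 and Stab1-208, were 2.03, 1.75 and 1.63 log2 higher relative to the rest of Stab1 with HACA (limma adjusted p = 0.0320, 0.0363 and 0.0347, where 0.889% of transcripts differed). Of the fits that left out 1 library each, only that without LPS replicate 2 kept these 3 calls (limma adjusted p = 0.0680 to 0.389 in the others; without LPS replicate 1 or 2 Stab1-206 stood at 1.14 and 3.01, and Stab1-209 at 1.15 and 2.41), and Stab1-208 and Stab1-209 also lost theirs with library totals (0.0776 and 0.0661). On simulated data this fit made more false calls than its threshold allows, so its p-values are too small.

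Per 100 counts of the coding transcript, the 4 intron-retaining transcripts other than Stab1-205 together gave 2.55 and 2.68 counts in control, 0.132 and 0.452 with LPS, and 1.14 and 1.40 in LPS+HACA. Both LPS+HACA libraries lay between LPS and control on this measure, while the coding counts of the libraries with and without HACA overlapped on the scaled level.

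Lyve1 (ENSMUSG00000030787, chr7:110850607-110863239, minus strand), the hyaluronan receptor of lymphatic endothelium and of some tissue macrophages, was not tested. It had 0 counts in the control and LPS libraries and 1 count in each LPS+HACA library, although 73.4% of its exonic bases could be counted. A count of 3, the limit that a count of 0 allows, equals 0.182 to 0.296 CPM in these libraries, counting error only. The other hyaluronan receptor of this type that was listed, Stab2, did not pass the filter on low counts either, and its private bases were not worked out.

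Tnfaip6 (ENSMUSG00000053475, chr2:52038009-52056686, plus strand) encodes TSG-6, a secreted protein that binds hyaluronan and transfers heavy chains of inter-alpha-inhibitor onto it. It is the only member with a single annotated transcript. It had 6 and 0 counts in control, 31 and 29 with LPS, and 2 and 1 in LPS+HACA, or 0.376 and 0, 3.05 and 2.79, and 0.121 and 0.0676 CPM. Only the 2 LPS libraries were above the low level, and the controls overlapped with LPS+HACA. Summed over libraries, LPS was 15.1-fold above control (95% counting interval 6.56 to 42.9) and 30.4-fold above LPS+HACA (9.93 to 152). The fitted log2 changes were 3.87 ± 0.93 (edgeR adjusted p = 0.0168) and −4.81 ± 1.02 (edgeR adjusted p = 0.0227). The size of the first rests on the controls, at 8.29 without control replicate 1, which leaves a control at 0, and 2.93 without control replicate 2, where it did not pass (edgeR adjusted p = 0.0546). The second was lost without LPS+HACA replicate 1 or 2 (edgeR adjusted p = 0.105 and 0.0974).

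The synthase gene Has1 (ENSMUSG00000003665, chr17:17843323-17855205, minus strand) had 3.89 and 6.22 CPM in control, 17.3 and 23.1 with LPS, and 11.0 and 12.6 in LPS+HACA. The libraries of the 3 groups did not overlap, with LPS+HACA between the others. It rose by 2.0 ± 0.33 log2 with LPS (edgeR adjusted p = 0.00341), a call kept under all 12 alternatives. The value for LPS+HACA against LPS was −0.78 ± 0.31 (edgeR adjusted p = 0.137), and that against control 1.23 ± 0.32 (edgeR adjusted p = 0.146). The last passed with DESeq2 (adjusted p = 0.0336) and without the filter on low counts in edgeR (adjusted p = 0.0215).

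The coding and the intron-retaining transcript of Has1 both rose with LPS. The coding transcript Has1-201 had 26 and 27 counts in control, 72 and 131 with LPS, and 66 and 83 in LPS+HACA. The intron-retaining Has1-202 had 36 and 67, 104 and 109, and 115 and 104. With LPS they rose by 2.5 ± 0.40 and 1.62 ± 0.37 log2 (edgeR adjusted p = 0.00102 and 0.00778), the second lost without control replicate 1 (0.114) and with library totals (0.0655). The difference between them did not pass (0.62 ± 0.35, limma adjusted p = 0.356).

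Has3 (ENSMUSG00000031910, chr8:106870242-106884566, plus strand), whose product makes shorter hyaluronan chains, did not pass the test in any comparison. It had 4.20 and 7.41 CPM in control, 4.14 and 6.17 with LPS, and 3.40 and 5.68 in LPS+HACA, and all groups overlapped. Its log2 values were −0.17 ± 0.43 with LPS (edgeR adjusted p = 0.798), −0.18 ± 0.43 when HACA was added (0.808) and −0.36 ± 0.42 between LPS+HACA and control (0.873). Has2, the synthase that is not a member, was not tested, with at most 0.493 CPM in a library. Its private bases were not worked out, so this does not show that Has2 is low.

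Of the degradation genes, Cemip2 (ENSMUSG00000024754, chr19:21778342-21858360, plus strand) passed the test. It encodes TMEM2, a transmembrane protein described as a cell-surface hyaluronidase. It had 1.63 and 1.06 CPM in control, 16.2 and 9.44 with LPS, and 4.19 and 2.57 in LPS+HACA, and the libraries of the 3 groups did not overlap. It rose by 3.24 ± 0.45 log2 with LPS (edgeR adjusted p = 0.00178), kept under all 12 alternatives, and fell by 1.91 ± 0.42 in LPS+HACA against LPS (edgeR adjusted p = 0.0248). The fall was lost in 6 of 12 alternatives: library totals (0.0780), the authors' FPKM with limma (0.0669), and without control replicate 1 or 2 (0.0539, 0.0552) or LPS+HACA replicate 1 or 2 (0.0770, 0.132). Against control LPS+HACA stood at 1.32 ± 0.44 (edgeR adjusted p = 0.263).

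These Cemip2 values describe introns. Cemip2-203, with 1465 private bases from the start of intron 4, held 25 and 16 counts in control, 131 and 85 with LPS, and 53 and 31 in LPS+HACA. Cemip2-205, with 355 private bases further along, held 0 and 0, 29 and 7, and 12 and 4. Cemip2-201, the coding transcript with 33 private bases, held 1 and 0, 4 and 6, and 4 and 3, too few to test. The counts behind the rise of Cemip2 with LPS are thus nearly all intronic. Cemip2-201 was also higher in both LPS libraries (0.401 and 0.570 CPM) than in the controls (0.0644 and 0 CPM), but its change was not tested. Cemip2-203 rose by 2.98 ± 0.44 log2 (edgeR adjusted p = 0.000637) and fell by 1.99 ± 0.41 with HACA (0.0127, and 0.0813 without LPS+HACA replicate 2). Cemip2-205, at 0 in control, was at least 14.0-fold higher in LPS and at least 3.83-fold higher in LPS+HACA by the exact lower 95% limit of the ratio (18.2-fold and 5.30-fold against 3 counts over the control group), counting error only, and 29 of its 36 LPS counts were in replicate 1.

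The classical hyaluronidases had few counts, 40 to 71 each over the 6 libraries, and none passed the test. For Hyal1 the counts came from 1.24% of its exonic bases, so they do not show that the gene is low. Hyal1 (ENSMUSG00000010051, chr9:107576927-107581710, plus strand), a lysosomal hyaluronidase, had 15 and 19 counts in control, 4 and 3 with LPS, and 15 and 15 in LPS+HACA. In CPM the LPS libraries had 0.394 and 0.289 and the LPS+HACA libraries 0.911 and 1.01, and both LPS libraries were below the other 4. The log2 values were −1.66 ± 0.64 with LPS (edgeR adjusted p = 0.0872) and 1.47 ± 0.65 for LPS+HACA against LPS (edgeR adjusted p = 0.169). The first passed with library totals (−2.29, edgeR adjusted p = 0.0264) and on the authors' FPKM (limma adjusted p = 0.0316). All 71 counts were those of 1 transcript, Hyal1-202, whose 47 private bases are 11 at its start and 36 at its end. The end lies in a stretch where Hyal1 overlaps Hyal3 and Naa80 on the same strand, so the assignment to Hyal1 is uncertain.

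Hyal2 (ENSMUSG00000010047, chr9:107567945-107572779, plus strand), a membrane-anchored hyaluronidase, had 59 counts in all. It stood at 0.565 and 1.19 CPM in control, 0.296 and 0.674 with LPS, and 0.607 and 0.811 in LPS+HACA. Of the counts of Hyal2, 47 were those of Hyal2-206, a coding transcript of 1 exon. Its 532 private bases lie in introns 1, 2 and 3 of Hyal2-201. A further 11 counts were those of Hyal2-204, whose 35 private bases lie in intron 1. Hyal3 (ENSMUSG00000036091, chr9:107580818-107587359, plus strand), the neighbour of Hyal1, had 40 counts, or 0.376 and 0.265, 0.985 and 0.193, and 0.668 and 0.473 CPM. For both genes control and LPS overlapped. The log2 values with LPS were −0.84 ± 0.75 and 0.85 ± 0.92 (edgeR adjusted p = 0.435 and 0.523), and those of LPS+HACA against LPS 0.53 ± 0.76 and −0.035 ± 0.88 (0.673 and 0.984). With so few counts and this spread between libraries, these values do not show that the genes were unchanged.

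**Figure D4:**
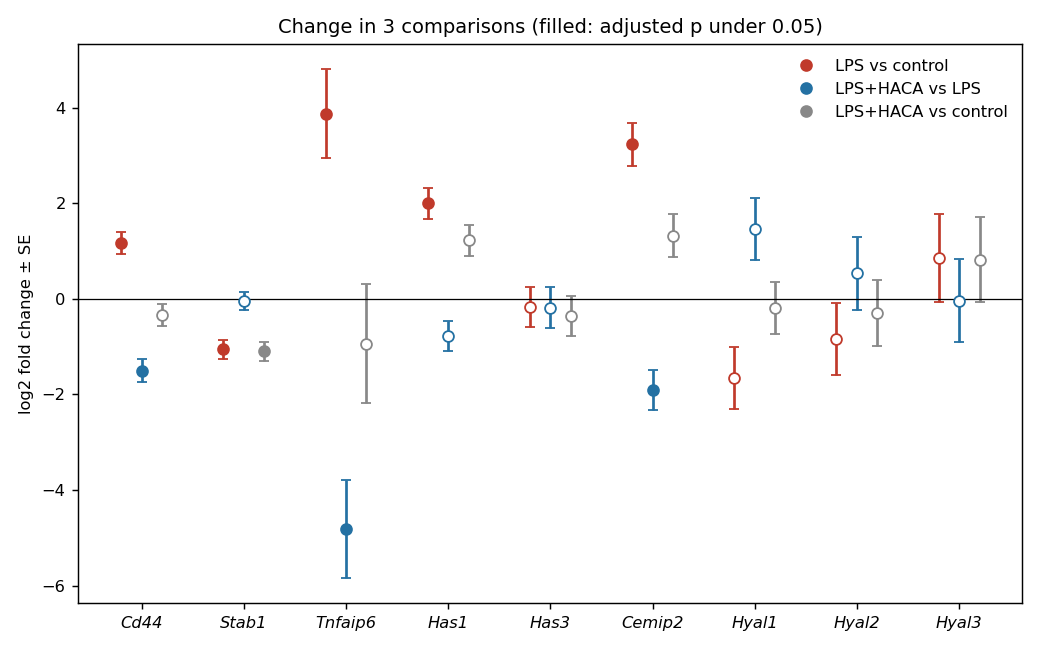
Log2 fold change ± SE of each tested member in the 3 comparisons (red, LPS against control; blue, LPS+HACA against LPS; grey, LPS+HACA against control); filled points have an edgeR adjusted p under 0.05. Cd44, Tnfaip6 and Cemip2 are called up with LPS and down with HACA, Has1 is called up with LPS only, and Stab1 is called down in both comparisons with control.

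Levels of different genes can be set side by side only per length, for which the authors deposited FPKM (a count scaled by transcript length and library depth). On that scale Stab1 was highest in every library, at 102 to 265 FPKM, and Cd44 second, at 8.75 to 26.9. Has1 stood at 1.41 to 8.57, Cemip2 at 0.349 to 5.75, Tnfaip6 at 0 to 1.79 and Has3 at 0.566 to 1.22. By FPKM Has1 was above Has3 in every library, and the other ranges among these 4 overlap. Hyal1, Hyal2 and Hyal3 lay at 0.10 to 0.574, and Lyve1 at 0 to 0.0217. Since counts come from private bases while FPKM divides by a length, genes with few private bases read too low here. This holds for Hyal1 (1.24% of its exonic bases private) and also for Cd44 (22.6%) and Has3 (30.3%, beside 75.3% for Has1). Per kilobase of private bases, control libraries had 1.71 and 1.83 CPM for Has1-201 and 2.26 and 3.94 for Has3-201. With LPS Has1-201 was higher (7.40 and 12.7 against 2.24 and 3.24), as in LPS+HACA (4.18 and 5.57 against 1.85 and 2.69). The order of Has1 and Has3 in control thus depends on the measure. The order below Stab1, with the second place of Cd44, is therefore uncertain.

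Start regions are given for 3 genes, Tnfaip6 and Cd44, which are among those that rose with LPS, and Stab1, which fell. The RefSeq table (GRCm38.p6) holds a promoter for 7 of the 10 members and none for Cemip2, Lyve1 and Has3. The 250 bases before each RefSeq start were searched on both strands for a kappa-B consensus, the AP-1 motif TGANTCA, the PU.1 core GAGGAA, the interferon response core (GAAA, any 2 bases, GAAA), the TATA box TATAAA and the M-box CATGTG. For Tnfaip6 the searched window runs on to chr2:52038112, into the first exon of Tnfaip6-201. Only the bases before that exon are printed. Matches stand in capitals, written as TTCCTC where GAGGAA lies on the other strand:
Tnfaip6, chr2:52037863-52038008, plus strand: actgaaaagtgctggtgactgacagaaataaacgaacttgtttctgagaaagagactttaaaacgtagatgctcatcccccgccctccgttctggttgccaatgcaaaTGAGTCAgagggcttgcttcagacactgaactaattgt
Cd44, chr2:102901666-102901915, minus strand: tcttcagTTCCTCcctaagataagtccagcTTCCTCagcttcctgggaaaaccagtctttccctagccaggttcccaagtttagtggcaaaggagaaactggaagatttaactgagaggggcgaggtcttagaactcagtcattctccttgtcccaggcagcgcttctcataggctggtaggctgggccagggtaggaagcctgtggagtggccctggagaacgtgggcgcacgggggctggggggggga
Stab1, chr14:31168642-31168891, minus strand: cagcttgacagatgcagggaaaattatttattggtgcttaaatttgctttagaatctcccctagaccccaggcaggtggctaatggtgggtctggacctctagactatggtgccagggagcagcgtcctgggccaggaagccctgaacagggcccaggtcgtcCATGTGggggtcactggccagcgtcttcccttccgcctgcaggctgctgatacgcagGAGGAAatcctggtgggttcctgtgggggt
Tnfaip6 holds the AP-1 motif, as do 6.75% of the 32851 promoters in the table. Cd44 holds the PU.1 core at 2 places and Stab1 at 1, and 23.3% of promoters hold it. Stab1 also holds the M-box, as do 12.3%. None of the 3 holds the kappa-B consensus (7.25% of promoters), the interferon response core (2.98%) or the TATA box (12.4%) in this window. Among the members whose promoters are not printed, Has1, which also rose with LPS, and Hyal1 hold none of the motifs. Hyal2 holds the kappa-B consensus and the PU.1 core, and Hyal3 the PU.1 core. A match is a description of the letters, not of a bound site.

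Of 50 further hyaluronan genes in lists by role, 29 could be tested. Private bases were worked out for the members only, so a low count of a listed gene need not mean low expression. With LPS 7 were higher and 1 lower (median log2 0.46), and with HACA against LPS 1 was higher and 3 were lower (median −0.29). Among all tested genes 15.9% were higher and 14.3% lower with LPS (median −0.053), and 5.74% and 7.67% with HACA against LPS (median 0.059). Between LPS+HACA and control edgeR called 0 of them, with 3 higher and 0 lower at an unadjusted p under 0.05, and DESeq2 and limma-voom called 1 higher each (median 0.22).

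Among 11 tested partners and processing enzymes of CD44, 3 were higher with LPS, where 15.9% of all genes were, and 0 lower (14.3% of all genes). Ezr and Msn encode ezrin and moesin, which link the tail of CD44 to actin. Msn had 1323 and 1043 CPM in control, 3095 and 3856 with LPS, and 1477 and 1238 in LPS+HACA, a rise of 1.56 ± 0.23 log2 (edgeR adjusted p = 0.00212) and a fall of 1.36 ± 0.22 with HACA (edgeR adjusted p = 0.0109, and 0.0625 and 0.0736 without LPS+HACA replicate 1 or 2). Ezr rose by 2.12 ± 0.34 (edgeR adjusted p = 0.00320; 1.51 without LPS replicate 2) and fell by 1.24 ± 0.33 (edgeR adjusted p = 0.0456). The fall of Ezr was lost with library totals (0.183), with the authors' FPKM and limma (0.116) and without any 1 library other than LPS replicate 1 (0.0967 to 0.207), and was 0.63 in size without LPS replicate 2. Adam17, a protease that sheds surface proteins including CD44, rose by 1.16 ± 0.26 (edgeR adjusted p = 0.0124, 0.141 with library totals and 0.125 without control replicate 1) and stood at −0.28 ± 0.26 with HACA against LPS (edgeR adjusted p = 0.506).

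Of 5 other receptors and binders tested, Tlr2 and Layn rose with LPS, where 15.9% of all genes did. Tlr2, a Toll-like receptor also linked to hyaluronan fragments, had 768 and 711 CPM in control, 1840 and 2038 with LPS, and 1354 and 1642 in LPS+HACA (1.39 ± 0.20 log2 with LPS, edgeR adjusted p = 0.00199). Layn, which encodes the hyaluronan receptor layilin, rose by 1.22 ± 0.31 (edgeR adjusted p = 0.0212, 0.179 with library totals, 0.0531 and 0.167 without control replicate 1 or 2). Neither passed for LPS+HACA against LPS.

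Only 3 of the 15 matrix binders could be tested, and 2 rose with LPS, beside 15.9% of all genes. Ptx3 encodes pentraxin 3, which joins TSG-6 in cross-linking hyaluronan. It had 0.941 and 0.132 CPM in control, 7.49 and 19.7 with LPS, and 0.607 and 0 in LPS+HACA (4.63 ± 1.12 and −5.40 ± 1.19 log2, edgeR adjusted p = 0.0251 and 0.0362). As with Tnfaip6, both LPS libraries were above the other 4, and the controls overlapped with LPS+HACA. The rise did not pass without LPS replicate 1 or 2 or control replicate 1 or 2 (edgeR adjusted p = 0.0570, 0.115, 0.0513 and 0.109), with values of 3.77 to 6.57 log2. The fall did not pass with limma-voom (adjusted p = 0.0534) or without LPS replicate 1 or 2 or LPS+HACA replicate 2 (edgeR adjusted p = 0.0663, 0.128 and 0.0767), and stood at −10.5 without LPS+HACA replicate 1 and −4.47 without LPS+HACA replicate 2. Vcan, which encodes the hyaluronan-binding proteoglycan versican, had 10.4 and 5.03, 84.6 and 29.1, and 19.7 and 12.1 CPM. It rose by 2.88 ± 0.60 (edgeR adjusted p = 0.0124; 0.0693 without control replicate 2, and 1.93 log2 without LPS replicate 1) and stood at −1.83 ± 0.58 with HACA against LPS (edgeR adjusted p = 0.0815).

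Of 4 other degradation genes tested, Gusb was the only one that changed with LPS, where 30.1% of all genes did, or with HACA against LPS (13.4%). It encodes beta-glucuronidase, a lysosomal enzyme that trims hyaluronan fragments. It had 21.1 and 21.6 CPM in control, 6.90 and 8.28 with LPS, and 15.5 and 14.0 in LPS+HACA, a fall of 1.49 ± 0.25 log2 with LPS (edgeR adjusted p = 0.00405) and a rise of 0.96 ± 0.25 with HACA (edgeR adjusted p = 0.0430). The rise of Gusb was lost with the authors' FPKM and limma (0.0819) and without any 1 library other than LPS replicate 2 (edgeR adjusted p = 0.0702 to 0.208). Of the 6 tested genes for synthesis and precursor supply edgeR called 0 in each comparison. At an unadjusted p under 0.05 there was 1, higher with LPS, and DESeq2 and limma-voom called 0.

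For 3 members the genes with the most similar profile over the 6 libraries were found, by the root mean square difference of centred log2 CPM among 8700 genes with a mean of at least 5 CPM. Closest to Cd44 were Gm47087 (0.125), Med21 (0.142) and Sh3bp5 (0.149). Closest to Stab1 were Taf11 (0.160), Cd33 (0.161) and Maf (0.170), of which Maf encodes a transcription factor of resident macrophages. Maf had 700 and 806 CPM in control, 310 and 255 with LPS, and 315 and 289 in LPS+HACA. Because Maf was picked for its likeness to Stab1, the overlap of its libraries with and without HACA is not a separate result. Closest to Tnfaip6 were Sntb1 (0.215), Tmem171 (0.264) and the chemokine gene Ccl9 (0.316). With a minimum of 20 CPM, which leaves 4290 genes, the nearest were Gda, Tmsb4x and Ms4a6b for Cd44, Cd33, Maf and Snx5 for Stab1, and Ccl9, Rapgef2 and Oas3 for Tnfaip6.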

How the data were processed

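Poly-A RNA of 6 libraries was sequenced, per the labels' protocols. The authors deposited raw counts per Ensembl transcript and FPKM per transcript. Of software, the submitters' processing notes list DESeq2 1.26.0, edgeR 3.28.1, limma, STAR 2.5.4b, Trim Galore and CASAVA, and as builds GRCh38 and GRCm38, without saying which step used which. Which program counted the reads is not given in the sources used here.

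Of 142647 transcript rows, 141524 matched GENCODE vM21 (GRCm38) and were summed per gene. The rows without a match made up 0.115% of the counts or less in each library. The main test was edgeR 4.0.16 (R 4.3.3): filterByExpr, TMM, robust quasi-likelihood F test, 1 fit over the 6 libraries with 3 residual degrees of freedom, Benjamini-Hochberg over 17113 genes, called under 0.05. The standard error is the log2 change divided by the root of F. Transcripts were tested the same way.

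Alternatives were DESeq2 1.42.0, limma-voom (limma 3.58.1), library totals, no filter, the replicate number as a block, limma on log2(FPKM + 0.1), and each library left out (the lone library of its group is assumed to vary like the others). The fit of each transcript against the rest of its gene (limma on the difference of log2(CPM + 0.5)) was chosen after seeing the data. Scripts were tested on simulated data. A base is private if no other annotated transcript of either strand covers it in an exon.

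The members and lists were chosen with earlier results of these data known. All 10 members are named. Of each further list, up to 3 called genes per direction and comparison with the largest change are named, and of like genes the 3 nearest to Cd44, Stab1 and Tnfaip6. Counting intervals are exact and at 95%, and cover counting error only.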

Additional observations from a re-analysis of the deposited data

How the results depend on the processing

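With 2 libraries a group, calls rest on single libraries. LPS against control: the members called lower were 1, and 2 with library totals or the authors' FPKM with limma. Leaving out 1 library gave 0 to 1 lower, and 11.8% to 31.7% of genes called instead of 30.1%. LPS+HACA against LPS: leaving out 1 library gave 0 to 3 members lower. The percent of genes called was 13.4, and 23.5 with library totals, 25.2 with the replicate block, 7.53 with the authors' FPKM, and 2.04 to 18.5 when leaving out 1 library. LPS+HACA against control: members called higher were 0, and 1 with DESeq2, 1 with no filter and 2 with the replicate block. Members called lower were 1, and 0 with library totals or FPKM and 0 to 1 when leaving out 1 library. The percent of genes called was 1.15, and 3.89 with DESeq2, 3.13 with no filter, 5.46 with the replicate block, 0 with FPKM and 0 to 3.32 when leaving out 1 library.

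No direction of a member that passed the test was reversed by an alternative. Reversed values, of results that did not pass, were as follows for LPS+HACA against LPS. With library totals Hyal3 stood at 0.56, Stab1 at 0.60, Has3 at 0.48, Stab1-201 at 0.58, Stab1-205 at 0.57 and Has1-202 at 0.083. Hyal3 stood at 0.0071 with no filter, 0.27 with limma-voom and 0.11 with FPKM, and Stab1-205 at 0.032 with limma-voom. Against control Tnfaip6 stood at 0.073 with limma-voom. Leaving out 1 library moved Hyal3 from −0.70 to 1.59 and Has3 from −0.54 to 0.30 (LPS against control). For LPS+HACA against LPS it moved Hyal3 from −0.78 to 1.53, Stab1 from −0.15 to 0.072, Has3 from −0.60 to 0.17, Stab1-201 from −0.22 to 0.060 and Stab1-205 from −0.54 to 0.68. Against control it moved Hyal1 from −0.39 to 0.034, Hyal2 from −0.75 to 0.32, Tnfaip6 from −1.88 to 3.49 and Has3 from −0.77 to 0.11. The cause was not tested.

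The labels give each group replicates 1 and 2 but do not say that a number marks a shared animal or day. Deviations of same-numbered libraries correlated at 0.308 to 0.509 over genes, and with 2 pairs this does not show a pairing. With the replicate block (2 residual degrees of freedom) Has1 fell by 0.76 in LPS+HACA against LPS (edgeR adjusted p = 0.0403) and was 1.25 above control (edgeR adjusted p = 0.0165), Cemip2 was 1.32 above control (edgeR adjusted p = 0.0477), Hyal3 stood at 0.075, and the transcript Stab1-205 fell by 1.02 with LPS (edgeR adjusted p = 0.0265). No call of a member was lost with it. Depth limits Lyve1, Hyal1, Hyal2, Hyal3, Tnfaip6 and the coding transcript of Cemip2 most, with 2 to 71 counts each over the 6 libraries.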
